A study of Homo sapiens with 12 samples.

Results

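The genes described are 10 early-response genes, FOS, FOSB, FOSL1, FOSL2, JUN, JUNB, JUND, EGR1, ZFP36 and ZFP36L1, taken by symbol from the 20263 genes of the expression table. All 10 were found, each as 1 gene identifier, and all 10 passed the filter on low values (3 or more libraries with a TPM of 1 or more), which left 11731 genes for testing. The set was chosen from group differences of TPM in these same libraries, with earlier results known, and ZFP36L1 had been named there for HIF2α-ko against vector, so that comparison is given below without a p. The other adjusted p-values come from a fit across all tested genes and are read beside the share of all genes called.

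Messenger RNA was sequenced from U-87 MG cells (U87), an established human glioblastoma cell line, cultured in 1% O2 for 72 h as the record of the experiment gives it. The study's methods give a shorter exposure for the detection of mRNA in general, so the time these values reflect is uncertain. The 4 groups, with 3 libraries each, were cells with the empty vector (vector), a HIF1α knockout (HIF1α-ko), a HIF2α knockout (HIF2α-ko) and a knockout of both genes (HIF1α/2α-ko, the dual knockout), and all of them were hypoxic, so no comparison with normal oxygen was possible. How the knockouts were made, and whether each group is 1 clone or a pool, is not given in the sources used here, and nothing says that the 3 libraries of a group came from separate cultures, so p-values measure the spread between libraries, which may be technical. Values are in TPM, a length-corrected measure of abundance that sums to the same total in every library and can therefore be compared between genes. The table keeps no depth, so no counting error can be given.

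AP-1 is a dimeric transcription factor built from 1 JUN family protein paired with a FOS family protein or with another JUN. FOS, FOSB, JUN and JUNB, the zinc finger factor EGR1 and the RNA-binding protein ZFP36 are textbook immediate early genes, transcribed within minutes of growth factor or stress signalling through ERK, JNK and p38 kinases and switched off again soon after. ZFP36 and ZFP36L1 bind AU-rich elements in the tails of short-lived messages, cytokine messages among them, and recruit deadenylases that lead to their decay. FOSL1 (FRA1), FOSL2 (FRA2) and JUND are the members whose messages last in cycling cells, and FOSL1 is known to be abundant in mesenchymal glioblastoma cells.

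In GENCODE 29 on GRCh38 the FOS family genes are FOS (ENSG00000170345, chr14:75278774-75282230, plus strand), FOSB (ENSG00000125740, chr19:45467995-45475179, plus strand), FOSL1 (ENSG00000175592, chr11:65892049-65900573, minus strand) and FOSL2 (ENSG00000075426, chr2:28392448-28417312, plus strand). The JUN family genes are JUN (ENSG00000177606, chr1:58780788-58784327, minus strand), JUNB (ENSG00000171223, chr19:12791496-12793315, plus strand) and JUND (ENSG00000130522, chr19:18279760-18281622, minus strand). The others are EGR1 (ENSG00000120738, chr5:138465490-138469315, plus strand), ZFP36 (ENSG00000128016, chr19:39406813-39409412, plus strand) and ZFP36L1 (ENSG00000185650, chr14:68787660-68796253, minus strand). Values are per whole gene, so exons and introns are not told apart.

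The expected content of the cells was checked first. HIF1A stood at 48.5 TPM in HIF1α-ko and 75.5 in the dual knockout against 124 in vector. EPAS1, which encodes HIF2α, stood at 107 in the HIF2α knockout and 117 in the dual knockout against 322 in vector. Each targeted message was thus lower but still present. HIF1A was also at 86.8 TPM in HIF2α-ko, where it was not targeted, below every vector library but without a call (limma adjusted p = 0.112). Of 12 markers of the line, VIM ranged from 5635 to 14690 TPM and CD44 from 399 to 1412, while SOX2, GFAP, S100B and PDGFRA stayed under 1 TPM in every library. Of 7 leukocyte markers, PTPRC, AIF1, CD3E and TYROBP stayed under 1 TPM in every library, and the summed level of 591 to 1641 came mostly from CD68, which ranged from 587 to 1633. That sum was 1291 to 1641 in vector, 823 to 1070 in HIF1α-ko, 1014 to 1226 in the HIF2α knockout and 591 to 822 in the dual knockout. Summed endothelial markers reached at most 7.96 TPM, epithelial markers 52.6 and neuronal markers 4.70. Replicate 1 stood apart in every group by Pearson's r of log2(TPM + 1) across genes. Vector replicate 1 had the lowest values, 0.984 and 0.983 with the other vector libraries against 0.994 between those. In the dual knockout replicate 1 had 0.987 and 0.988 against 0.996, and in HIF1α-ko and HIF2α-ko 0.991 and 0.992 against 0.996. The values of the 10 genes against vector are also given without vector replicate 1 where a call changes, and some without replicate 1 of every group. Across all tested genes the median log2 fold change was 0.18 in HIF1α-ko, -0.04 in the HIF2α knockout and 0.21 in the dual knockout, so member values in the first and last of these are set against a background that was itself shifted upward.

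The bases before the transcription starts are shown for JUND and JUNB, which were higher in several knockout groups, for ZFP36L1, which was higher in all of them, and for EGR1, whose 4 groups overlapped, so that genes with different values can be compared. The sequences are from RefSeq, build GRCh38.p14, read 5′ to 3′ on the gene's strand. Each ends at the base before the annotated start, except that of ZFP36L1, whose last bases before the start fall in an annotated exon and are left out. Capitals mark matches, on either strand, to the cAMP response element CRE (TGACGTCA), its core TGACG, which the full element holds on each strand, the HIF core in a first form, ACGTG, and in a second form, GCGTG, and the CArG box, the binding motif of SRF.
JUND, chr19:18281623-18281872, minus strand: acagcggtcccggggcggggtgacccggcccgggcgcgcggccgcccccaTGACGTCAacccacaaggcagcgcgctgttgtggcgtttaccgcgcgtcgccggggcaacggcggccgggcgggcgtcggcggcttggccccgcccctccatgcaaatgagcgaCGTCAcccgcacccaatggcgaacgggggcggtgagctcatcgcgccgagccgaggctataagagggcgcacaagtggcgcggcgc
JUNB, chr19:12791236-12791485, plus strand: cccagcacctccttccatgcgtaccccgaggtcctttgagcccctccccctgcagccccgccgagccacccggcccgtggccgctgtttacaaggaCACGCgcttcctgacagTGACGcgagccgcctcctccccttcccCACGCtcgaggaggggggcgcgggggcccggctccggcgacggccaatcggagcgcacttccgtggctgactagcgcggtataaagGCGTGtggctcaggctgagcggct
EGR1, chr5:138465229-138465478, plus strand: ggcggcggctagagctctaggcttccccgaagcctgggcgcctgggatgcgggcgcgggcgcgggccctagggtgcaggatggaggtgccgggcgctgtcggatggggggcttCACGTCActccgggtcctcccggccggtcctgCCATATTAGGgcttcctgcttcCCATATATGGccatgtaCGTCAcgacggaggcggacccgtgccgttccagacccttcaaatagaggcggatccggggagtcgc
ZFP36L1, chr14:68796254-68796493, minus strand: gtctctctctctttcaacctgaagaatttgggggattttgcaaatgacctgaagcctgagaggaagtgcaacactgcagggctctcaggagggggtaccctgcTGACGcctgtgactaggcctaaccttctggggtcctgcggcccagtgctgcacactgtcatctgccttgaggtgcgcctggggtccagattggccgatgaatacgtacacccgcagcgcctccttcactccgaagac

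JUND held a full CRE 200 bases before the start and a further core at 86 bases. EGR1 held CArG boxes at 105 and 83 bases and CRE cores at 135 and 66 bases, the first of which overlaps an ACGTG match at 137 bases. JUNB held a CRE core at 137 bases and GCGTG matches at 154, 110 and 24 bases. RefSeq windows were found for 9 of the 10 genes, all but FOSL1, and ZFP36L1 had 2 annotated starts. In the 250 bases before the start, 8 of these 9 genes held a CRE core, against 21.2% of 35116 RefSeq windows of the same length, and JUND and ZFP36L1 (at its second start, 52 bases before it) held the full CRE, against 1.65%. The AP-1 site TGANTCA was matched in 0 of the 9, against 6.57% of all windows. The CArG box was matched in EGR1 alone, against 1.16%, ACGTG in EGR1 and FOSL2, against 18.5%, and GCGTG in FOS, JUN, JUNB and ZFP36, against 32.2%. Such matches describe letters, not occupied sites, and the absence of a match covers these windows only.

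**Figure D1:**
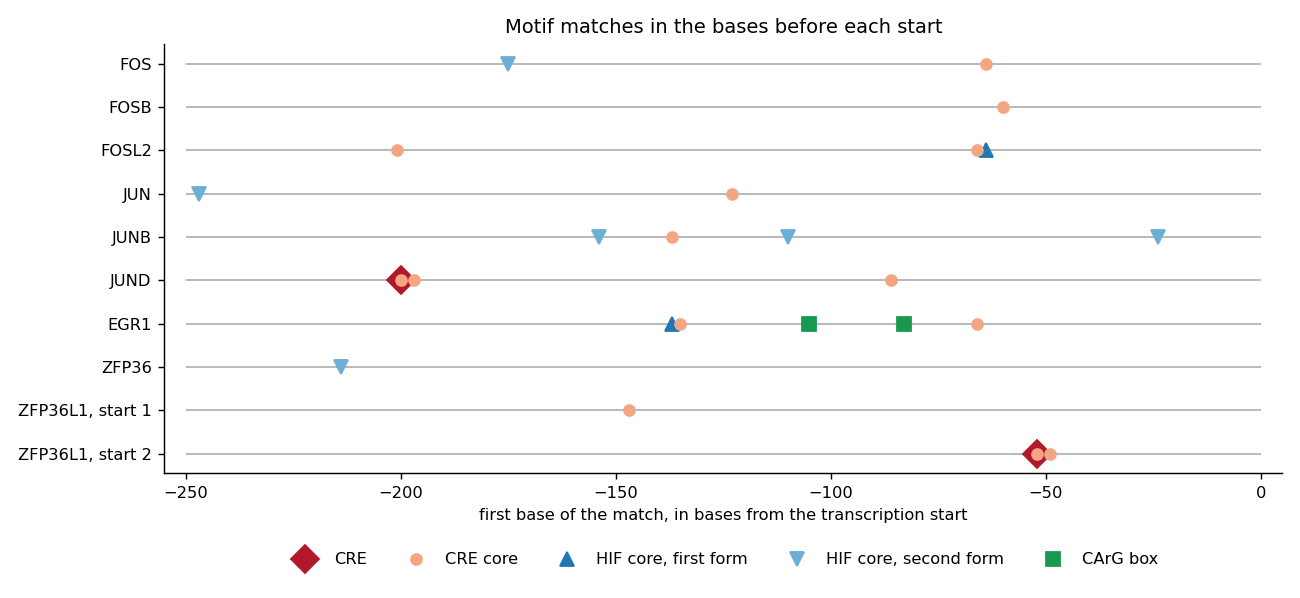
Motif matches in the 250 bases before each annotated start, with the distance of the first base of the match from the start in bases on the x axis and 1 line per start. Full CRE matches lie at 200 bases in JUND and at 52 bases in the second start of ZFP36L1, and cores (small circles) are in 8 of the 9 genes.

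Among the JUN family, JUND, the member that is usually expressed most steadily, was higher in every knockout group. It stood at 42.7, 45.4 and 47.7 TPM in vector, 63.7, 71.3 and 70.4 in HIF1α-ko, 69.0, 85.0 and 82.4 in the HIF2α knockout, and 167, 171 and 173 in the dual knockout. Each knockout group lay above vector without overlap, and the dual knockout lay above both single knockouts, which overlapped each other. The group means were 45.3 ± 2.49 (SD, n = 3), 68.5 ± 4.16, 78.8 ± 8.61 and 170 ± 2.93 TPM in the same order. JUND rose by a log2 fold change of 0.59 in HIF1α-ko (standard error 0.12, limma adjusted p = 0.00399), by 0.78 in the HIF2α knockout (standard error 0.12, limma adjusted p = 0.00286) and by 1.89 in the dual knockout (standard error 0.12, limma adjusted p = 6.94e-07). It was also higher in the dual knockout than in HIF1α-ko, by 1.30, and than in the HIF2α knockout, by 1.11.

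JUNB, which can oppose JUN at some promoters, was higher where HIF2α was knocked out. It stood at 81.0, 77.8 and 75.0 TPM in vector, 90.3, 89.3 and 78.3 in HIF1α-ko, 198, 179 and 174 in the HIF2α knockout, and 233, 115 and 123 in the dual knockout. The libraries of HIF2α-ko and the dual knockout lay above all of those of vector and HIF1α-ko, and replicate 1 of the dual knockout stood far above the other libraries of its group. JUNB rose by 1.22 in HIF2α-ko (standard error 0.21, limma adjusted p = 0.00537) and by 0.93 in the dual knockout (standard error 0.21, limma adjusted p = 0.00335), whereas in HIF1α-ko its log2 fold change was 0.14 (95% interval -0.32 to 0.60), which turned to -0.06 with median ratio scaling. Without replicate 1 of the dual knockout the change there was 0.61, which still passed the threshold, and JUNB was lower in the dual knockout than in HIF2α-ko, at -0.61 (limma adjusted p = 0.00147) in place of -0.29 without a call. The JUNB gene overlaps HOOK2 on the opposite strand, and HOOK2 stood at 18.5 TPM in HIF2α-ko and 15.1 in the dual knockout against 12.9 in vector, below JUNB in each. Whether reads were counted by strand is not given in the sources used here.

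JUN, the founding member of the family and the main target of JNK, moved the other way in the dual knockout. It stood at 395, 327 and 306.5 TPM in vector, 422, 389.6 and 372 in HIF1α-ko, 279, 254 and 246 in the HIF2α knockout, and 238, 190.4 and 198 in the dual knockout. HIF1α-ko overlapped vector, and every library of HIF2α-ko and of the dual knockout lay below every vector library. JUN fell by a log2 fold change of 0.71 in the dual knockout (standard error 0.13, limma adjusted p = 0.000725). In HIF2α-ko the change of -0.39 did not pass the threshold (standard error 0.13, limma adjusted p = 0.0682), and in HIF1α-ko it was 0.21 (limma adjusted p = 0.239). The call in the dual knockout was kept without vector replicate 1, at -0.60.

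The sum of the 3 JUN family messages changed less than its make-up. It was 519, 450 and 429 TPM in vector, 576, 550 and 520 in HIF1α-ko, 545, 517 and 502 in the HIF2α knockout, and 639, 477 and 494 in the dual knockout, and the dual knockout overlapped every other group. JUND made up 8.23 to 11.1% of this sum in vector, 11 to 13.5% in HIF1α-ko, 12.6 to 16.4% in the HIF2α knockout and 26.2 to 35.9% in the dual knockout. The ratio of JUN to JUND, both per length, was 6.43 to 9.25 in vector, 5.28 to 6.63 in HIF1α-ko, 2.98 to 4.04 in the HIF2α knockout and 1.11 to 1.43 in the dual knockout. Vector and HIF1α-ko overlapped in this ratio, and the other steps did not.

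**Figure D2:**
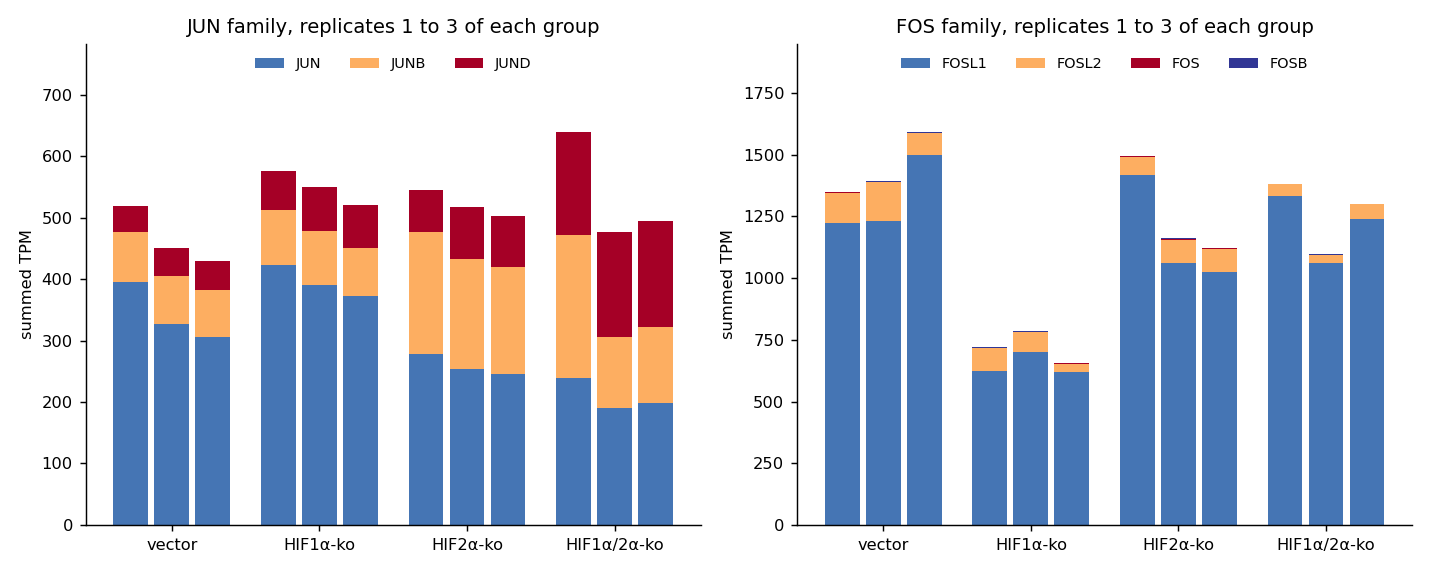
Summed TPM of the JUN family (left) and the FOS family (right) in each of the 12 libraries, with 1 stacked bar per library and 1 colour per gene. JUND takes 26.2 to 35.9% of the JUN family bar in the dual knockout against 8.23 to 11.1% in vector, and the FOS family bars of HIF1α-ko, at 657 to 785 TPM, are the lowest.

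Among the FOS family, FOSL1 carried nearly all of the message, and its level was lower in HIF1α-ko. It stood at 1225, 1233 and 1500 TPM in vector, 625, 702.5 and 620.1 in HIF1α-ko, 1420, 1060 and 1024 in the HIF2α knockout, and 1334, 1063 and 1238 in the dual knockout. The 3 libraries of HIF1α-ko lay below all 9 others, while the dual knockout overlapped both vector and HIF2α-ko. FOSL1 fell by a log2 fold change of 1.02 in HIF1α-ko (standard error 0.14, limma adjusted p = 0.000757). In the dual knockout, which by label shares the HIF1α knockout, its change was -0.12 (95% interval -0.44 to 0.19). In HIF2α-ko it was -0.19 (95% interval -0.50 to 0.13). FOSL1 was higher in the dual knockout than in HIF1α-ko by 0.90 (standard error 0.14, limma adjusted p = 0.00085). It made up 86.9 to 96.8% of the summed FOS family TPM over all 12 libraries.

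FOSL2, the other late FOS member, had a lower mean in each knockout group than in vector. It stood at 121, 155.5 and 89.4 TPM in vector, 91.0, 78.7 and 33.1 in HIF1α-ko, 72.6, 96.0 and 93.8 in the HIF2α knockout, and 46.5, 30.4 and 60.8 in the dual knockout. The dual knockout lay below vector and HIF2α-ko without overlap, while both single knockouts overlapped vector. FOSL2 fell by a log2 fold change of 1.41 in the dual knockout (standard error 0.35, limma adjusted p = 0.00564). The changes of -0.93 in HIF1α-ko (standard error 0.35, limma adjusted p = 0.0676) and -0.45 in the HIF2α knockout (limma adjusted p = 0.446) did not pass the threshold. The first of these passed it with median ratio scaling, at -1.13, and without HIF1α-ko replicate 1, at -1.20.

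FOS and FOSB, the acutely induced members, were near the lower end of what was tested in every library. FOS stood at 2.37, 2.55 and 0.966 TPM in vector, 1.498, 1.51 and 1.45 in HIF1α-ko, 2.21, 2.54 and 2.74 in the HIF2α knockout, and 1.16, 2.16 and 1.02 in the dual knockout. Of the 9 knockout libraries, all but 1 of HIF2α-ko lay within the range of vector, and the log2 fold changes against vector of -0.21, 0.28 and -0.26 each had a standard error of 0.23 and none passed the threshold. FOSB stood at 2.37, 1.00 and 0.761 TPM in vector, 1.88, 2.81 and 2.45 in HIF1α-ko, 1.78, 2.30 and 2.56 in the HIF2α knockout, and 2.02, 2.24 and 2.23 in the dual knockout. Vector replicate 1 lay among the knockout libraries, and the other 2 vector libraries lay below all 9 of these. The FOSB changes of 0.56, 0.49 and 0.47 did not pass the threshold (limma adjusted p = 0.0836, 0.184 and 0.102). Without vector replicate 1 they were 0.84, 0.77 and 0.75, and all 3 passed it (limma adjusted p = 0.00355, 0.00956 and 0.00396). At this level the pseudocount of 1 makes these changes smaller than the ratio of TPM, and FOSB overlaps ERCC1 on the opposite strand, which stood at 97.0 TPM in vector and 92.6 to 111 in the knockout groups.

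EGR1, a serum- and stress-induced factor, passed the threshold in no comparison in the model of all 12 libraries without a replicate term. It stood at 20.9, 23.6 and 26.6 TPM in vector, 15.7, 34.5 and 30.1 in HIF1α-ko, 15.7, 29.1 and 27.1 in the HIF2α knockout, and 12.04, 25.4 and 25.2 in the dual knockout. All 4 groups overlapped, and replicate 1 was the lowest library of each of them. The log2 fold changes against vector were 0.10 (95% interval -0.62 to 0.83), -0.03 (95% interval -0.75 to 0.70) and -0.24 (95% interval -0.97 to 0.48), so these libraries leave room for changes of that width in either direction. With median ratio scaling the first was -0.09 and the second 0.02. Those intervals include the replicate 1 libraries. Without replicate 1 of every group EGR1 was higher in HIF1α-ko than in vector, at 0.35 (limma adjusted p = 0.0244). It was lower in the dual knockout than in HIF1α-ko, at -0.34 (limma adjusted p = 0.0337). That fit rests on replicates 2 and 3 alone. In it 39.2% of all genes were higher in the first comparison and 16.1% lower in the second.

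ZFP36, also known as tristetraprolin, was higher in the dual knockout. It stood at 18.0, 28.6 and 11.9 TPM in vector, 14.7, 15.0 and 13.1 in HIF1α-ko, 12.8, 16.0 and 15.5 in the HIF2α knockout, and 32.8, 37.1 and 42.5 in the dual knockout. Every library of the dual knockout lay above the 9 others, and each single knockout lay inside the range of vector. ZFP36 rose by a log2 fold change of 0.98 in the dual knockout (standard error 0.24, limma adjusted p = 0.00539), and its changes of -0.34 in HIF1α-ko and -0.30 in the HIF2α knockout did not pass the threshold. Against the single knockouts the dual knockout was higher by 1.33 and 1.28.

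ZFP36L1, its paralog, had the largest log2 fold change against vector of the 10 genes in HIF1α-ko and the dual knockout. Its value in HIF2α-ko, also the largest there, is the one that chose the gene, and all 3 comparisons share the vector libraries. ZFP36L1 stood at 156, 60.4 and 66.8 TPM in vector, 214, 195 and 351 in HIF1α-ko, 476, 310.1 and 465 in the HIF2α knockout, and 317, 588 and 422 in the dual knockout. All 9 knockout libraries lay above all 3 vector libraries, and the 3 knockout groups overlapped each other. Its log2 fold change was 1.50 in HIF1α-ko (standard error 0.35, limma adjusted p = 0.00966), 2.24 in the HIF2α knockout (standard error 0.35) and 2.31 in the dual knockout (standard error 0.35, limma adjusted p = 0.000226). Vector replicate 1 was the highest of the vector libraries, and without it the changes were 1.93, 2.67 and 2.73.

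**Figure D3:**
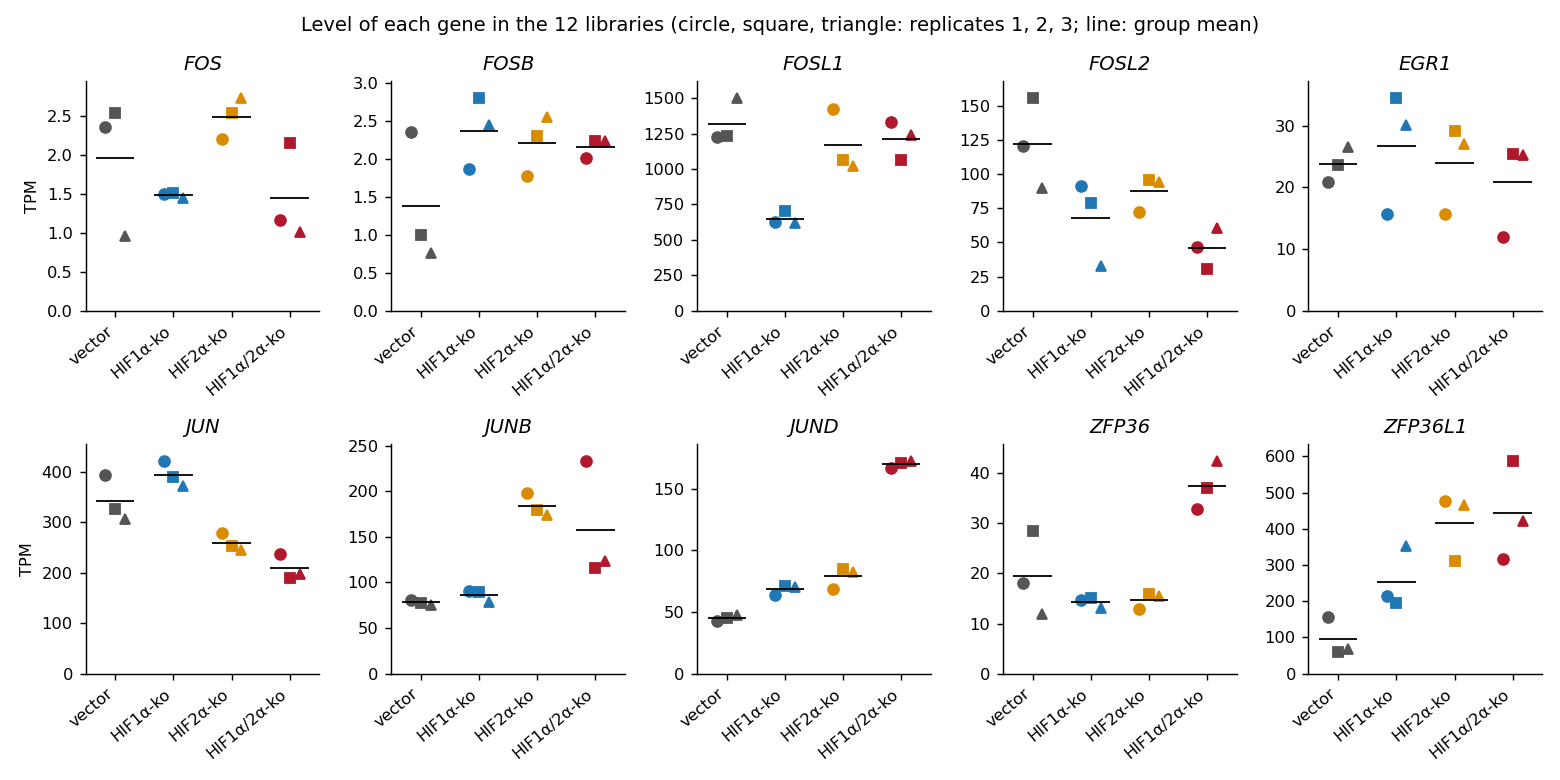
TPM of each of the 10 genes in the 12 libraries, from 0 on a linear axis that differs between panels, with 1 point per library (circle, square and triangle for replicates 1, 2 and 3) and a line at the group mean. JUND at 167 to 173 TPM and ZFP36 at 32.8 to 42.5 TPM in the dual knockout lie above all other libraries, and FOSL1 at 620.1 to 702.5 TPM in HIF1α-ko lies below them.

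Counted together, 3 of the 10 genes were called in HIF1α-ko, with JUND and ZFP36L1 higher and FOSL1 lower. Over all tested genes 17.3% were called higher and 8.77% lower in that comparison. In HIF2α-ko, JUNB and JUND were higher and 0 of the 10 lower, against 5.07% of all genes higher and 5.89% lower, and ZFP36L1, whose value there chose it, is left out of that count. JUN was the 1 member with an unadjusted limma p under 0.05 in the lower direction there. In the dual knockout, JUNB, JUND, ZFP36 and ZFP36L1 were higher and FOSL2 and JUN lower, against 31.8% of all genes higher and 14.8% lower. The median log2 fold change of the 10 genes was 0.12, 0.12 and 0.17 in these comparisons, beside 0.18, -0.04 and 0.21 for all tested genes. The 3 comparisons share the vector libraries and are not independent of each other.

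**Figure D4:**
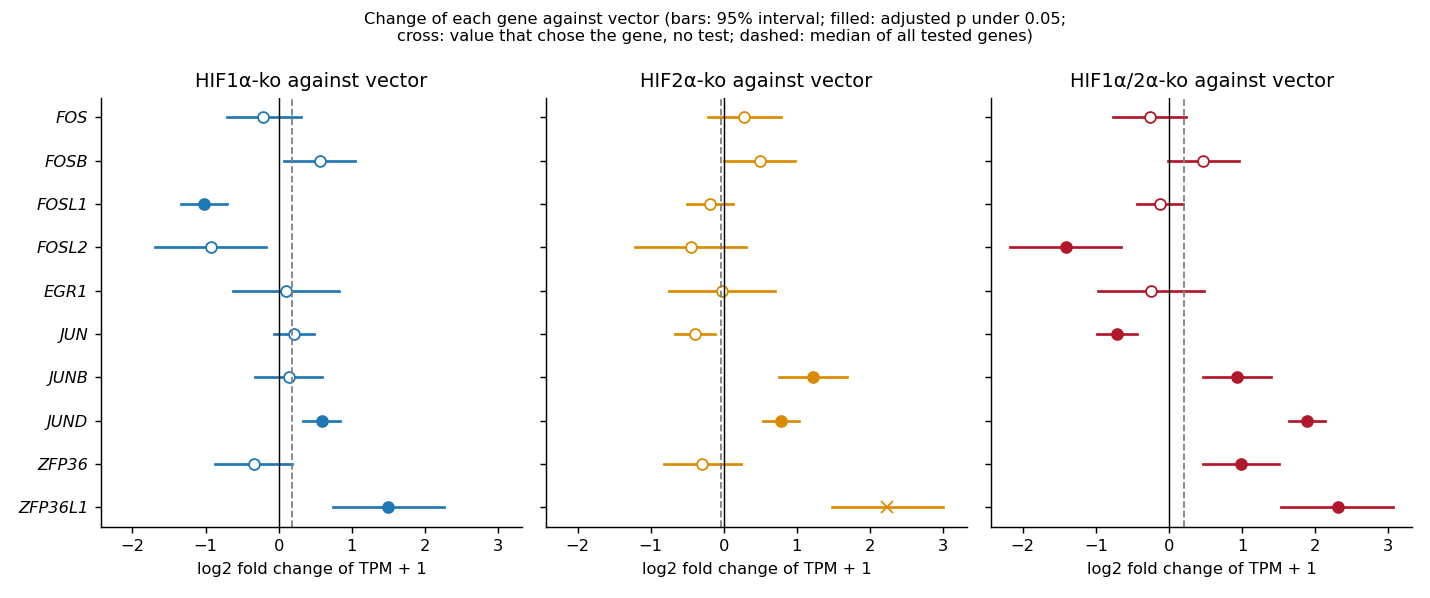
Log2 fold change of TPM + 1 against vector for each gene, with 1 panel per knockout group, bars for the 95% interval, filled points for an adjusted p under 0.05, a cross for the value that chose ZFP36L1 and is not tested, and a dashed line at the median of all tested genes. JUND is filled in all 3 panels, at 0.59 in HIF1α-ko, 0.78 in the HIF2α knockout and 1.89 in the dual knockout.

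The dual knockout was then compared with each single knockout, which by label adds the knockout of the second factor. HIF1A stood at 75.5 TPM in the dual knockout against 48.5 in HIF1α-ko. Whether the HIF1α knockout was equal in these groups was not tested. Same-numbered libraries of the 3 knockout groups deviated from their group means together, so the values with the replicate number as a block are given where they change a call. Against HIF1α-ko, FOSL1, JUNB, JUND and ZFP36 were higher and JUN lower, by 0.92, in the dual knockout, beside 17.7% of all genes higher and 10.6% lower. The JUNB call was lost in a fit of the 2 groups only (limma adjusted p = 0.0538) and without HIF1α-ko replicate 3 (limma adjusted p = 0.0554). With the block, ZFP36L1 was also higher, by 0.81 (limma adjusted p = 0.041), and EGR1 lower, by 0.34 (limma adjusted p = 0.0161). In that fit 29% of all genes were higher and 19.5% lower. Against HIF2α-ko, JUND and ZFP36 were higher and FOSL2 lower, at -0.96 (limma adjusted p = 0.0394), beside 33.5% of all genes higher and 12.9% lower. With the block, 43.6% of all genes were higher and 19% lower. JUN at -0.32 (limma adjusted p = 0.00372) and FOS at -0.54 (limma adjusted p = 0.0183) were then lower and the FOSL2 call was lost (limma adjusted p = 0.0633). That call was also lost with no filter (limma adjusted p = 0.0751), without any 1 of the HIF2α-ko libraries (limma adjusted p = 0.0501 to 0.103), without replicate 1 or 2 of the dual knockout (limma adjusted p = 0.0617 and 0.158) and without replicate 1 of every group (limma adjusted p = 0.0722). Median ratio scaling also gave 2 members higher and 3 lower in that comparison in place of 2 and 1. Under that scaling 23.4% of all genes were higher and 21% lower, in place of 33.5% and 12.9%.

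Between the single knockouts, FOSL1 was higher in HIF2α-ko than in HIF1α-ko by 0.83 and JUNB by 1.08, and JUN was lower by 0.60, beside 7.37% of all genes higher and 17.8% lower. The JUN call was lost with median ratio scaling, at -0.35 (limma adjusted p = 0.178). Under that scaling FOSL1, JUNB and JUND were higher and 0 of the members lower, beside 11.1% of all genes higher and 8.81% lower. With the block FOS was also higher in HIF2α-ko, by 0.49 (limma adjusted p = 0.0344). In that fit 12.7% of all genes were higher and 37.8% lower.

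Whether the change with the HIF2α knockout differed with and without the HIF1α knockout was tested as the change from HIF1α-ko to the dual knockout minus the change from vector to HIF2α-ko. It was above 0 for FOSL1, at 1.08 (standard error 0.20, limma adjusted p = 0.00436), for ZFP36, at 1.63 (standard error 0.34, limma adjusted p = 0.00732), and for JUND, at 0.52 (standard error 0.16, limma adjusted p = 0.0405). Below 0 it passed the threshold for 0 of the 10 genes by limma, with JUN at -0.52 under an unadjusted p of 0.05. For ZFP36L1 it was -1.43, given without a p since it holds the HIF2α-ko change that chose the gene. Over all tested genes 13.2% passed above 0 and 7.35% below. The JUND term no longer passed the threshold with either rescaling, with no mean-variance trend and without any 1 of 10 of the 12 libraries, at 0.43 to 0.58 over these 10. Without vector replicate 1, FOSB (-0.85) and JUN (-0.63) passed below 0, and without replicate 1 of the dual knockout JUN (-0.62) and JUNB (-0.75) did. Over all tested genes 12.9% and 7.13% passed below 0 in these fits. Without vector replicate 1 the ZFP36L1 term was -1.86, which holds the same choosing change.

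Genes around the members were taken from lists written with earlier results of these data known and are described by their counts, to be read beside the shares of all tested genes, which were 17.3% higher and 8.77% lower in HIF1α-ko, 5.07% and 5.89% in the HIF2α knockout, and 31.8% and 14.8% in the dual knockout. Of 22 tested immediate early transcription factors outside the 10 members, 4 were higher and 4 lower in HIF1α-ko, 1 and 2 in the HIF2α knockout, and 9 and 1 in the dual knockout. Their median log2 fold change was -0.02, 0.00 and 0.44, beside 0.18, -0.04 and 0.21 over all tested genes. In the dual knockout ATF3, a stress-induced partner of JUN, rose from 29.3 to 146 TPM (2.44, limma adjusted p = 0.000296), the orphan nuclear receptor NR4A1 from 17.2 to 42.4 (1.24, limma adjusted p = 0.000448) and KLF2 from 2.45 to 6.60. ID1, an inhibitor of basic helix-loop-helix factors, was higher in all 3 groups, at 20.6 to 24.8 TPM against 5.79 in vector. KLF10 was lower in HIF1α-ko (-1.30) and HIF2α-ko (-1.09), NFIL3 was lower in the HIF2α knockout (-1.25), and BHLHE40, a known hypoxia-induced repressor, was lower in HIF1α-ko (-0.61), in which CEBPD rose by 1.37.

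Of 12 tested bZIP partners and competitors of AP-1, 4 were higher and 0 lower in HIF1α-ko, 1 and 3 in the HIF2α knockout, and 7 and 2 in the dual knockout. BATF3 rose by 1.09 in HIF1α-ko and 1.68 in the dual knockout, ATF4, the factor of the integrated stress response, by 0.74 and 1.00 in the same groups, and BACH1 by 1.01 in HIF1α-ko. JDP2, a repressor that dimerises with JUN, rose by 1.12 in HIF1α-ko and by 1.18 in the dual knockout and fell by 1.11 in the HIF2α knockout, and NFE2L1 rose by 0.55 in HIF2α-ko and by 0.92 in the dual knockout.

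The kinases and factors that act on the members and their feedback genes were next. Of 22 tested kinases and SRF cofactors, 2 were higher and 3 lower in HIF1α-ko, 0 and 2 in the HIF2α knockout, and 12 and 3 in the dual knockout, so that 9.09%, 0% and 54.5% were higher. SRF, which binds the CArG box printed above for EGR1, rose from 6.87 TPM in vector to 14.9 in HIF1α-ko and 25 in the dual knockout, and MAP2K7, a JNK kinase, rose by 1.34 in the dual knockout. MAPK3 (ERK1) was lower in all 3 groups, at 256, 313 and 215 TPM against 487 in vector, as was ELK3, at 19.2, 16.5 and 14.5 against 27.8, and MAPK7 (ERK5) was lower in HIF1α-ko (-0.87) and the dual knockout (-1.12). Of 21 tested ERK and JNK feedback genes, 3 were higher and 4 lower, 2 and 2, and 12 and 4 in the same order of groups. DUSP5, a nuclear ERK phosphatase, rose from 48.8 TPM to 93.6 in HIF2α-ko and 297 in the dual knockout (2.58, limma adjusted p = 6.94e-07), and SPRY2 rose by 0.93 and 1.56 in these groups and DUSP8 by 1.97 in the latter. SPRED2 was lower in all 3 groups (-0.63, -0.63 and -1.04), as was PHLDA1 (-1.20, -0.75 and -0.53), whose libraries did not overlap those of vector, and SPRY1 was lower in HIF1α-ko (-1.18) and the dual knockout (-1.65).

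Upstream and downstream ligands and targets moved in both directions. Among 5 tested EGF family ligands HBEGF rose from 1.73 to 14.4 TPM and EREG from 3.02 to 30.4 in the dual knockout, TGFA fell from 16.8 to 7.77 in HIF2α-ko and 7.12 in the dual knockout, and NRG1 fell from 12.1 to 6.02 in HIF1α-ko, where its libraries overlapped vector. Of 15 tested AP-1 target genes, 3 were higher and 1 lower in HIF1α-ko, 2 and 2 in the HIF2α knockout, and 2 and 4 in the dual knockout. HMOX1 rose from 40.6 to 146 TPM in the dual knockout. PLAUR, the urokinase receptor, was lower in HIF1α-ko (-0.39) and the dual knockout (-0.42), TIMP1 and LIF rose by 0.75 and 1.19 in HIF1α-ko, IL11 rose by 0.69 in the HIF2α knockout and TGFB1 fell by 0.75 there. Of 9 tested EGR1 co-repressors and targets, 2 were higher and 1 lower, 0 and 1, and 3 and 3. PDGFA rose by 0.94 in HIF1α-ko and 1.66 in the dual knockout, FN1 was lower in these groups (-1.39 and -1.63), and THBS1 fell by 0.74 in the latter at 0.548 TPM against 1.59.

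The messages known to carry AU-rich elements bound by ZFP36 proteins were counted next. Of 23 tested, 3 were higher and 1 lower in HIF1α-ko, 5 and 0 in the HIF2α knockout, and 8 and 1 in the dual knockout, and the message lower in HIF1α-ko and the dual knockout was HIF1A, the targeted gene. The higher ones were 13% of the list in HIF1α-ko, below the share of all genes, 34.8% in the dual knockout, near that share, and 21.7% in the HIF2α knockout, against 5.07% of all genes. Their median log2 fold change was 0.32, 0.78 and 0.86, beside 0.18, -0.04 and 0.21 over all tested genes. Without vector replicate 1 these counts were 12 higher and 2 lower, 16 and 1, and 16 and 2. The shares of all tested genes were then 24.1% higher and 11.6% lower, 11.1% and 10.2%, and 33% and 15.3%. Some other fits lowered the counts. In the HIF2α knockout 0 were higher in a fit of the 2 groups only, beside 1.91% of all genes. There 1 was higher without vector replicate 3, beside 2.15%. In HIF1α-ko 0 were higher without vector replicate 2, beside 9.68%, or without vector replicate 3, beside 9.11%. With median ratio scaling 4 were higher in the dual knockout, beside 24.3%. CXCL2 rose from 61.7 TPM to 215 in HIF2α-ko and 449 in the dual knockout, CXCL8 from 135 to 736 and, with libraries that overlapped those of vector, to 335, CXCL3 from 11.4 to 43.3 in the dual knockout, and PIM3 from 102 to 200. CCL20 passed the threshold in all 3 groups, at 58.6, 97.5 and 75.3 TPM against 14.4, although its libraries overlapped those of vector. Of 17 tested ZFP36 partners and decay factors, 1 was higher and 2 lower in HIF1α-ko, 0 and 2 in the HIF2α knockout, and 7 and 3 in the dual knockout. ZFP36L2, the third paralog, rose from 5.34 to 13.8 TPM in the dual knockout, ELAVL1 (HuR), which binds the same elements and stabilises messages, from 10.3 to 28.1, and the deadenylase subunit CNOT6L from 0.562 to 3.30. The deadenylase subunits CNOT8 and CNOT3 were lower in HIF1α-ko (-1.02 and -0.61) and in the dual knockout (-1.15 and -0.57), CNOT3 fell by 0.96 in the HIF2α knockout, and KHSRP fell by 0.74 there and rose by 0.48 in the dual knockout.

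Heat shock genes, which also respond to how cells are handled before lysis, were higher in sum in HIF1α-ko and the dual knockout. Of 12, 6 were higher and 1 lower in HIF1α-ko, 2 and 0 in the HIF2α knockout, and 10 and 1 in the dual knockout, and their summed TPM was 2317 to 2732 in vector, 2909 to 3121 in HIF1α-ko, 2402 to 2427 in the HIF2α knockout and 3656 to 3868 in the dual knockout. HSPH1 rose from 0.720 to 5.48 TPM, DNAJA1 from 8.51 to 32.4 and HSPE1 from 24.6 to 84.4 in the dual knockout. HSPA1A and HSPA1B, whose sequences are nearly identical so that their split is uncertain, were at 9.82 to 11.6 and 18.9 to 22.8 TPM in the knockout groups against 3.36 and 5.73 in vector. In HIF2α-ko the summed heat shock TPM lay inside the range of vector, although HSPA1A (1.43) and HSPA1B (1.71) were called higher there. The part of handling in the member values was not tested. Of 20 hypoxia markers, 0 were higher and 13 lower in HIF1α-ko, 5 and 1 in the HIF2α knockout, and 0 and 14 in the dual knockout. BNIP3 stood at 71.7 and 137 TPM in HIF1α-ko and the dual knockout against 1019 in vector, CA9 at 368 and 244 against 1329, PFKFB4 at 30.5 and 83.3 against 189, and ENO1 at 1725 and 3319 against 7050. LOX was lower in HIF2α-ko (-0.92) and the dual knockout (-3.22), whereas ANGPTL4, ANKRD37 and PGK1 rose by 1.41, 1.30 and 0.78 in HIF2α-ko.

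Without vector replicate 1 most of these counts moved. In HIF1α-ko they were then 7 higher and 5 lower for the immediate early factors, 5 and 1 for the AP-1 partners, 9 and 5 for the feedback genes, 4 and 6 for the kinases and SRF cofactors, 1 and 1 for the EGF family ligands, 5 and 3 for the AP-1 targets, 1 and 3 for the decay factors, 7 and 1 for the heat shock genes, and 1 and 14 for the hypoxia markers. In the HIF2α knockout they were 4 and 3 for the immediate early factors, 2 and 3 for the AP-1 partners, 4 and 2 for the feedback genes, 1 and 2 for the kinases and SRF cofactors, 2 and 2 for the EGF family ligands, 6 and 2 for the AP-1 targets, 0 and 2 for the EGR1 co-repressors and targets, 2 and 1 for the heat shock genes, and 6 and 2 for the hypoxia markers. In the dual knockout they were 11 and 2 for the immediate early factors, 12 and 3 for the feedback genes, 10 and 3 for the kinases and SRF cofactors, 4 and 2 for the AP-1 targets, 6 and 2 for the decay factors, and 0 and 16 for the hypoxia markers. The counts of the other lists did not move, apart from the AU-rich messages given above.

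**Figure D5:**
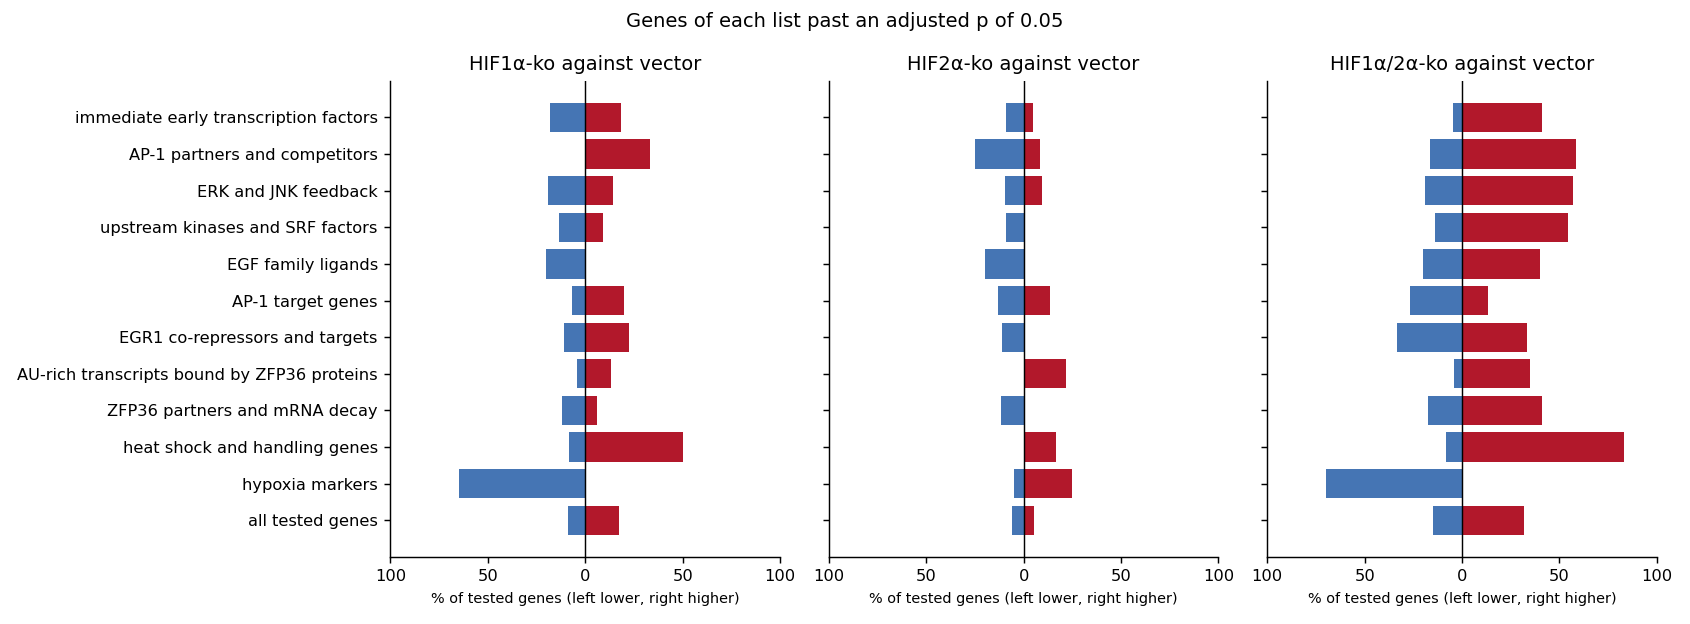
Share of the tested genes of each list that passed an adjusted p of 0.05, in percent, higher to the right and lower to the left, with 1 panel per knockout group and all 11731 tested genes as the last row. In the dual knockout 10 of 12 heat shock genes were higher and 14 of 20 hypoxia markers lower, against 31.8% and 14.8% of all tested genes.

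The genes whose log2(TPM + 1) was most like that of 4 members over the 12 libraries were found by Pearson's r, which here mixes differences between groups with those between libraries of a group and shares the scaling of each library. For JUN they were MMP2 (r = 0.981), a secreted gelatinase, at 8350, 9400, 6980 and 5263 TPM in vector, HIF1α-ko, HIF2α-ko and the dual knockout, followed by STEAP3 (r = 0.976) and ARMH4 (r = 0.974). For ZFP36L1 they were RCC1L (r = 0.972), RBX1 (r = 0.964), at 13.9 TPM in vector and 24.3 to 31.5 in the knockout groups, and POLR1H (r = 0.952). For EGR1 they were PHF20 (r = 0.957), PPP1R21 (r = 0.950) and ESYT2 (r = 0.946), each with group means close to each other. Those of PHF20 were 12.8 to 13.5 TPM, and those of EGR1 ranged more widely, from 20.9 to 26.8. For FOS they were SIDT2 (r = 0.924), KRT18 (r = 0.834) and PPCS (r = 0.831), all 3 with their highest mean in HIF2α-ko.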

How the data were processed

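Total RNA of 12 hypoxic U-87 MG libraries was sequenced after an mRNA library kit. The authors deposited 1 table of TPM values, in which reads are corrected for gene length and scaled to a fixed total, so columns sum to 999955 to 999982 and depth is lost. Per the labels, the submitters' processing notes name FastQC 0.11.2, Trimmomatic 0.36, HISAT2 2.0, bedtools 2.26.0 and GRCh38; the counter and the annotation are not given in the sources used here. The vector columns were assigned as the only ones whose names carry no knockout code. Of 20263 identifiers, 20148 were matched to symbols and 76 more through GENCODE 29.

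Genes with a TPM of 1 or more in 3 or more libraries were fitted as log2(TPM + 1) by limma 3.58.1 in R 4.3.3, with 1 model of all 4 groups, a mean-variance trend, and Benjamini-Hochberg adjustment within each comparison at 0.05. The script was tested on simulated data. Intervals are 95% and, like standard errors, come from this model. Promoter windows are from RefSeq (GRCh38.p14), and the motifs were searched on both strands. Tables and plots used Python 3.11.15 with matplotlib 3.10.9, numpy 2.4.6 and pandas 2.3.3.

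The members and the gene lists were chosen with earlier results of these data known. Named genes are all members, HIF1A and EPAS1, the 3 genes past the threshold that had the smallest p of their list in each comparison with vector, and the 3 genes most like FOS, JUN, EGR1 and ZFP36L1 by Pearson's r. The markers and the overlapping genes HOOK2 and ERCC1 fall outside this rule. Alternatives were a pseudocount of 0.1, no filter, a mean TPM of at least 5, median ratio scaling, quantile normalization, only the 2 groups compared, no trend, a replicate block, each library left out, and replicate 1 of every group left out. A block over the 3 knockout groups was added after seeing the data. It rests on the values, since the sources used here do not explain the numbers: Pearson's r of same-numbered deviations was 0.196 to 0.508 among knockout groups and -0.0265 to 0.163 between these and vector. Some genes of these lists are not reported here by name.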

Additional observations from a re-analysis of the deposited data

Results flagged for a closer look

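For 3 of the 10 genes the change with the HIF2α knockout differed with and without the HIF1α knockout by the test of that difference (limma), while 13.2% of all tested genes passed above 0 and 7.35% below. For FOSL1 the term was 1.08 (adjusted p = 0.00436). FOSL1 means were 1319 TPM in vector, 1168 in HIF2α-ko, 649 in HIF1α-ko and 1212 in the dual knockout. For ZFP36 it was 1.63 (adjusted p = 0.00732), with means of 19.5, 14.8, 14.3 and 37.5 TPM in the same order. For JUND it was 0.52 (adjusted p = 0.0405), with means of 45.3, 78.8, 68.5 and 170 TPM, and that term no longer passed the threshold with median ratio scaling (0.45) or quantile normalization (0.44), with no mean-variance trend (0.52), or without any 1 of 10 of the 12 libraries (0.43 to 0.58). Heat shock genes summed to 2317 to 2732 TPM in vector and 3656 to 3868 in the dual knockout, and their part in these terms was not tested.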

How the results depend on the processing

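Calls of single members against vector were kept under all alternatives run, and calls between knockout groups that were lost are given in the report. With replicate 1 of every group left out, 6 members were called in HIF1α-ko, 6 in the HIF2α knockout and 8 in the interaction. These stood in place of 3, 3 and 3, with ZFP36L1 counted, while the share of all genes called rose to 55.1%, 36.5% and 43%. ZFP36L1 was chosen by its change from vector to HIF2α-ko, which the last 2 of these comparisons hold. Either rescaling, by median ratio or by quantiles, gave 5 calls between the dual knockout and HIF2α-ko in place of 3. The share of all genes called there was 44.5% and 45.6% in place of 46.4%. Leaving out single libraries gave 2 to 6 calls in the interaction, beside 13.1% to 30.4% of all genes. The 6 came without vector replicate 1 and count ZFP36L1, whose term holds the change that chose it. Small changes turned sign: JUNB in HIF1α-ko at -0.06 with median ratio scaling, EGR1 in HIF1α-ko at -0.09 with median ratio scaling, -0.00 with quantile normalization and -0.11 to 0.43 with single libraries left out (0.35 without replicate 1 of every group, limma adjusted p = 0.0244), and EGR1 in HIF2α-ko at 0.02, 0.03 and -0.18 to 0.24 in the same order and at 0.16 without replicate 1 of every group. EGR1 in the dual knockout ran from -0.41 to 0.10 with single libraries left out and stood at 0.01 without replicate 1 of every group, its interaction ran from -0.65 to 0.02, and ZFP36 in HIF2α-ko ran from -0.59 to 0.01. The cause was not tested.

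With the replicate number as a block over all 4 groups, for which vector showed no pairing, the calls against vector were 3, 4 and 6. ZFP36L1 is counted in these, although its value in HIF2α-ko chose it and is not a test. The added call was JUN, lower in HIF2α-ko (-0.39, limma adjusted p = 0.0129). The shares of all genes called against vector were then 33.8%, 17.6% and 52.6%. Pairing the 3 knockout groups gave 7, 4 and 4 calls between them in place of 5, 3 and 3. Of all genes, 48.5%, 62.6% and 50.5% were called with that pairing, in place of 28.3%, 46.4% and 25.1%. Over all genes, calls ranged from 1552 to 6461 in HIF1α-ko (3060 as reported), 471 to 4283 in the HIF2α knockout (1286), 2310 to 5684 between the dual knockout and HIF1α-ko (3322), 1451 to 5927 between the single knockouts (2949) and 1542 to 5040 in the interaction (2414). They ranged from 3907 to 7550 in the dual knockout (5473) and from 3825 to 7339 between the dual knockout and HIF2α-ko (5442). These 2 lowest counts came with a mean TPM of at least 5, where fewer genes were tested. The share of calls that were higher was 66.4% in HIF1α-ko, 68.2% in the dual knockout, 72.3% between the dual knockout and HIF2α-ko and 29.3% between the single knockouts, and 45.6%, 52.3%, 52.7% and 55.7% with median ratio scaling. Counts of called genes moved by over 1.5 times without at least 1 single library other than vector replicate 1 for 9 of the 11 gene lists in HIF1α-ko, 9 in the HIF2α knockout and 0 in the dual knockout. Without depth, the precision of low genes such as FOS and FOSB cannot be stated.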
